A study of Mus musculus with 12 samples.

Results

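Forkhead transcription factors, the family to which the FoxO proteins belong, were measured in mouse bone marrow cells with and without FoxO. The genes described are Foxo1, Foxo3, Foxo4, Foxp1, Foxp4, Foxm1, Foxn2, Foxn3, Foxk1 and Foxj3, 10 of the 18194 genes with a probe set of their own. Every probe set that the platform annotation pairs with 1 of these genes alone was taken, which gave 36 of the 45101 probe sets on the array. Of these, 32 passed a filter on dim probe sets and were tested. The cells came from 4 groups with 3 arrays each, 12 arrays in all. WT LSK cells (arrays 1 to 3) and WT myeloid progenitors (arrays 7 to 9) were sorted from mice homozygous for LoxP-flanked FoxO1, FoxO3 and FoxO4 alleles that carried no Mx-Cre. FoxO-deficient LSK cells (arrays 4 to 6) and FoxO-deficient myeloid progenitors (arrays 10 to 12) came from mice with the same floxed alleles and the Mx-Cre transgene, which drives Cre recombinase from an interferon-responsive promoter. Every comparison of deficient with wild-type cells is therefore also one of mice with and without Mx-Cre. LSK cells are the lineage-negative, Sca-1-positive, Kit-positive fraction of bone marrow that holds the stem cells. Mice were pooled before sorting and labelling was done in triplicate. Nothing in the labels separates the pools behind a group's 3 arrays. The p-values below therefore reflect how much arrays varied within groups, and that variation may be purely technical. Each probe set had 1 estimate of spread shared by all 4 groups, so a standard error or p-value also carries spread from groups outside the comparison. The labels give neither the age of the mice nor the exons that the LoxP sites flank.

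Forkhead proteins bind DNA through a winged-helix domain, and many of them recognise a short core sequence ending in AAACA. FoxO proteins are held in the cytoplasm when Akt phosphorylates them and enter the nucleus when growth factor signalling falls, where they activate genes of cell cycle arrest, stress resistance and metabolism. In blood-forming cells they are known for keeping stem cells quiescent and for limiting reactive oxygen species. Foxp, Foxn, Foxk, Foxj and Foxm proteins carry the same DNA-binding domain and act as repressors or activators with other partners.

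The 250 bases upstream of the annotated starts were searched on both strands for 3 forkhead core sequences, which differ in their leading bases and do not contain one another. Among 32851 RefSeq windows of this length in assembly GRCm38.p6, 3.17% held GTAAACA. The second, ATAAACA, was in 4.16% of these windows. The last, CAAAACA, was in 5.56%, and 12.1% held at least 1 of the 3. The sequence table holds 8 windows for 6 of the 10 genes, namely Foxo1, Foxo3, Foxp1, Foxp4, Foxn3 and Foxj3. Foxj3 is shown because 1 of its probe sets fell with loss of FoxO, Foxo1 because it was a targeted gene whose level also differed between the cell types, and Foxp1 because it holds a match. Capitals mark the match.
Foxo1 (chr3:52268087-52268336, plus strand): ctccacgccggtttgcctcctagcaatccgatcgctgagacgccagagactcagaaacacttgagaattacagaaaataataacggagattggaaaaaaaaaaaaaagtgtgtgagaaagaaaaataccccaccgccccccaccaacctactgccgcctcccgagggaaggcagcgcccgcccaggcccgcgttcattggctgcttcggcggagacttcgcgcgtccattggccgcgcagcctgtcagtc
Foxj3 (chr4:119539411-119539660, plus strand): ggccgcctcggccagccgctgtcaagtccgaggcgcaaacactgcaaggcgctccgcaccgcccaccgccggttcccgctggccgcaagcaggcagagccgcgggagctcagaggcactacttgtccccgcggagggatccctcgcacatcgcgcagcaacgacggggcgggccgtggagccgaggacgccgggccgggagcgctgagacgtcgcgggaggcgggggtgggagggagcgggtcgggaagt
Foxp1, window 3 of 3 (chr6:99520994-99521243, minus strand): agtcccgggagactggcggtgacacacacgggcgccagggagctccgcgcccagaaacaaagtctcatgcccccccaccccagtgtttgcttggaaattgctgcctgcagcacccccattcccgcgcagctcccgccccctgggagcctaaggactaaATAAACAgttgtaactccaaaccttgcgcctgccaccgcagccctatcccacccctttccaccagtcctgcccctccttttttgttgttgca
Neither the Foxo1 nor the Foxj3 window held any of the 3 core sequences. The Foxp1 window shown held ATAAACA at 92 to 86 bases upstream of its start, and the second Foxp1 window held it on the opposite strand at 77 to 71 bases upstream. A match describes only these letters in this window.

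Array 2, a WT LSK array, stood apart from the other 11. Its ratio of 3′ to 5′ probe set intensity was 344 for Gapdh against 1.77 to 2.37 on the other arrays, and 145 for Actb against 2.74 to 3.36, a pattern of RNA measured mainly near its 3′ end. It correlated with the other WT LSK arrays at r = 0.846 and 0.852, while all other pairs within a group lay between 0.929 and 0.947. Call counts of the 32 tested forkhead probe sets that use WT LSK are therefore given with and without it, as are some single changes. Any other change that uses WT LSK includes array 2. The sorted populations carried the markers of their labels: the summed level of 9 LSK marker genes was 6319.6 to 6818 in WT LSK and 6374 to 6758 in FoxO-deficient LSK, against 1463 to 1595 and 1718 to 1883 in the progenitors. For 8 myeloid progenitor markers the order was the opposite, 3935 to 5021 and 4696 to 5073 in LSK against 12698 to 13689.9 and 15309.7 to 16101 in progenitors. None of 6 T and NK cell markers was above background on all 12 arrays. Of 5 B cell markers, Cd79b was above it on all 12, 3 were on some and Pax5 on none, and their summed level was 58.5 to 137 and 104 to 122 in WT and FoxO-deficient LSK, and 68.6 to 94.4 and 125 to 166 in WT and deficient progenitors. Of 7 late neutrophil markers, 4 were above background on all 12 arrays and 3 on some, with sums of 1165 to 1821 and 1641 to 1716 in LSK and 477 to 572 and 683 to 762 in progenitors. Over 6 stromal and endothelial markers, 1 of them above background on all 12 arrays and 5 on some, the sums were 113 to 205 and 67.8 to 82.6 in LSK and 56.3 to 70.2 and 64.0 to 85.9 in progenitors. The part of these cell types in the forkhead results was not tested.

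Most of these forkhead genes gave signal in both cell types. Values are normalised intensities, and each array has a background limit, set from 27 bacterial control probe sets, that lay between 5.14 and 13.0. Of the 36 probe sets, 19 were above the limit on all 12 arrays, 15 on some arrays and 2 on none. For 9 of the 10 genes at least 1 probe set was above it throughout. The exception was Foxm1, which drives genes of mitosis and whose most often detected probe set was above the limit on 11 arrays. Intensities of different probe sets do not measure relative amounts of RNA, so each is compared only with itself, and bright or dim below refers only to the signal over background.

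Loss of FoxO was visible first in the targeted genes themselves, and outside them, with all 12 arrays, it reached the adjusted threshold in 1 gene, Foxj3. A probe set is called changed when its limma p-value, Benjamini-Hochberg adjusted over all 31779 probe sets tested, is under 0.05. In LSK cells 1 of the 32 forkhead probe sets (3.12%) fell, that of Foxo4, and none rose, where 0.148% of all probe sets were called. In myeloid progenitors 2 of 32 (6.25%) fell, those of Foxo4 and Foxj3, where 1.46% of all were called. Averaged over both cell types, a comparison that uses the same arrays as these, 3 of 32 (9.38%) fell, with Foxo1 added, where 1.03% of all were called. The other 7 genes, Foxo3, Foxp1, Foxp4, Foxm1, Foxn2, Foxn3 and Foxk1, were called in none of these comparisons. The median forkhead log2 change was 0.13 in LSK and 0.05 in progenitors, against 0.01 and 0.02 over all tested probe sets. At an unadjusted p under 0.05 the forkhead counts were 5, 6 and 8 of 32 in LSK, in progenitors and averaged, where those over all 31779 probe sets were 3321, 3887 and 4023.

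**Figure D1:**
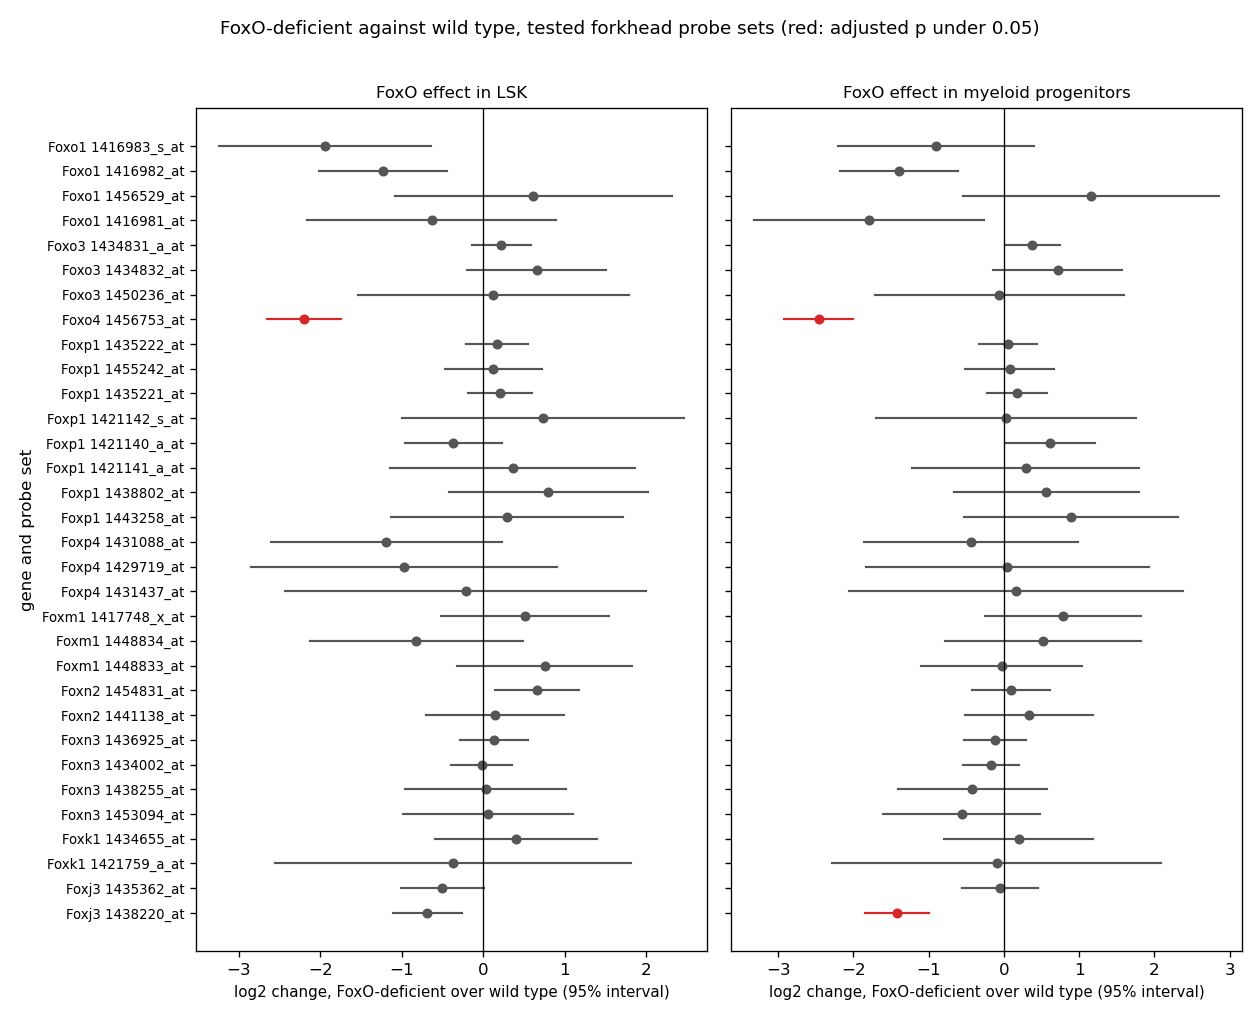
Log2 change of FoxO-deficient over wild-type cells for the 32 tested forkhead probe sets, in LSK cells (left) and myeloid progenitors (right), with points for limma estimates, bars for 95% confidence intervals and red for an adjusted p under 0.05. The Foxo4 probe set 1456753_at is at -2.20 and -2.46 and the Foxj3 probe set 1438220_at at -0.68 and -1.42.

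Foxo4 showed the largest fall among the forkhead probe sets in each cell type. Its probe set 1456753_at (gene at chrX:101254261-101260873, GRCm38.p6) read 347, 366 and 479 on the WT LSK arrays and 67.2, 93.8 and 100.2 on the FoxO-deficient LSK arrays. It read 349.8, 309 and 332 in WT progenitors and 59.1, 59.3 and 61.3 in deficient progenitors. All 6 deficient arrays lay below all 6 wild-type arrays, at levels still above background. The fall was 4.58-fold in LSK, a log2 change of -2.20 ± 0.20 (SE, n = 3 against 3, limma adjusted p = 0.00447), and 5.51-fold in progenitors, -2.46 ± 0.20 (limma adjusted p = 2.8e-04). Without array 2 these were -2.24 and -2.46 (limma adjusted p = 0.00472 and 1.75e-04). With only the LSK arrays in the fit, the LSK change of Foxo4 had a limma adjusted p of 0.185. As these are bulk RNA samples, fewer cells with the transcript and less transcript per cell cannot be told apart. The other Foxo4 probe set, 1422149_at, was too dim to be tested.

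Foxo1, best known for its part in lymphocyte and metabolic gene control, lay closer to background, and 3 of its 4 probe sets had lower means in deficient cells. Probe set 1416982_at (gene at chr3:52268337-52350109) read 64.1, 91.7 and 67.2 in WT LSK and 36.4, 26.9 and 31.5 in FoxO-deficient LSK. In progenitors it read 14.8, 20.9 and 33.5 in wild type and 10.4, 5.37 and 10.2 in deficient cells, where 1 of the 3 arrays was below background. In each cell type the deficient arrays were all below the wild-type ones. The log2 changes were -1.23 ± 0.35 in LSK and -1.39 ± 0.35 in progenitors (limma adjusted p = 0.285 and 0.101), and only the average of both, -1.31 ± 0.25, was called (limma adjusted p = 0.0418). That call was lost, at adjusted p between 0.0618 and 0.109, when any 1 of arrays 1, 3, 4, 5, 6, 8, 9, 10, 11 and 12 was left out. The progenitor change was called without array 2, at -1.41 (limma adjusted p = 0.0498).

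The Foxo1 probe set 1416983_s_at read 53.8, 265 and 79.5 in WT LSK and 27.1, 39.2 and 18.9 in deficient LSK. It read 38.7, 23.9 and 14.0 in WT progenitors and 9.99, 15.7 and 12.6 in deficient ones. Array 2 held the highest value by far, the LSK groups did not overlap and the progenitor groups did. Neither change was called, at -1.94 ± 0.58 and -0.90 ± 0.58 (limma adjusted p = 0.304 and 0.623). Without array 2 the LSK change was -1.27 (limma adjusted p = 0.277). Probe set 1416981_at, above background on 4 of 12 arrays, changed by -0.63 in LSK and -1.79 in progenitors (limma adjusted p = 0.735 and 0.308), without overlap in LSK and with overlap in progenitors. Without array 8 its progenitor change of -2.71 was called (limma adjusted p = 0.0240), as was the average of both cell types, at -1.67 (limma adjusted p = 0.0440). The last Foxo1 probe set, 1456529_at, also near background but above it on 10 of 12 arrays, had the opposite sign. It changed by 0.62 in LSK and 1.15 in progenitors, with limma adjusted p of 0.769 and 0.637. In LSK its groups did not overlap, at 13.1 to 13.9 in deficient and 7.93 to 9.49 in wild-type cells, while in progenitors they did.

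Foxo3, the FoxO gene most studied in stem cell maintenance, had no lower mean in FoxO-deficient cells on either of its bright probe sets. Probe set 1434832_at (gene at chr10:42181845-42276695) read 2395, 820.4 and 2815 in WT LSK and 2779, 2743 and 2845 in FoxO-deficient LSK. It read 1549.6, 1414.5 and 1405 in WT progenitors and 2452, 2386 and 2324 in deficient progenitors. Apart from array 2, the LSK groups were close, while every deficient progenitor array lay above every wild-type one. The progenitor change of 0.71 ± 0.38 was not called with all arrays (limma adjusted p = 0.514). Its standard error includes the spread of WT LSK, where the SD of the log2 values was 0.97, against 0.08 and 0.04 in WT and deficient progenitors. Without array 2 the progenitor change was 0.70 ± 0.10 and was called as higher in deficient progenitors (limma adjusted p = 0.00668). It was also called with array weights and with only the progenitor arrays in the fit (limma adjusted p = 0.0215 and 0.0472).

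The second Foxo3 probe set, 1434831_a_at, read 2479.7, 2108 and 2715 in WT LSK against 3011, 2672 and 2812 in deficient LSK. In progenitors it read 1913, 1837 and 1832 against 2263, 2414 and 2574. The progenitor groups again did not overlap, with a change of 0.38 ± 0.16 that was not called (limma adjusted p = 0.390). In LSK the 95% interval of its change ran from -0.14 to 0.59. The third, 1450236_at, was above background on 5 of 12 arrays and changed by 0.13 in LSK and -0.06 in progenitors (limma adjusted p = 0.954 and 0.993). Where these probe sets lie relative to the deleted part of Foxo3 was not analysed here, so their levels do not check the Foxo3 deletion.

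**Figure D2:**
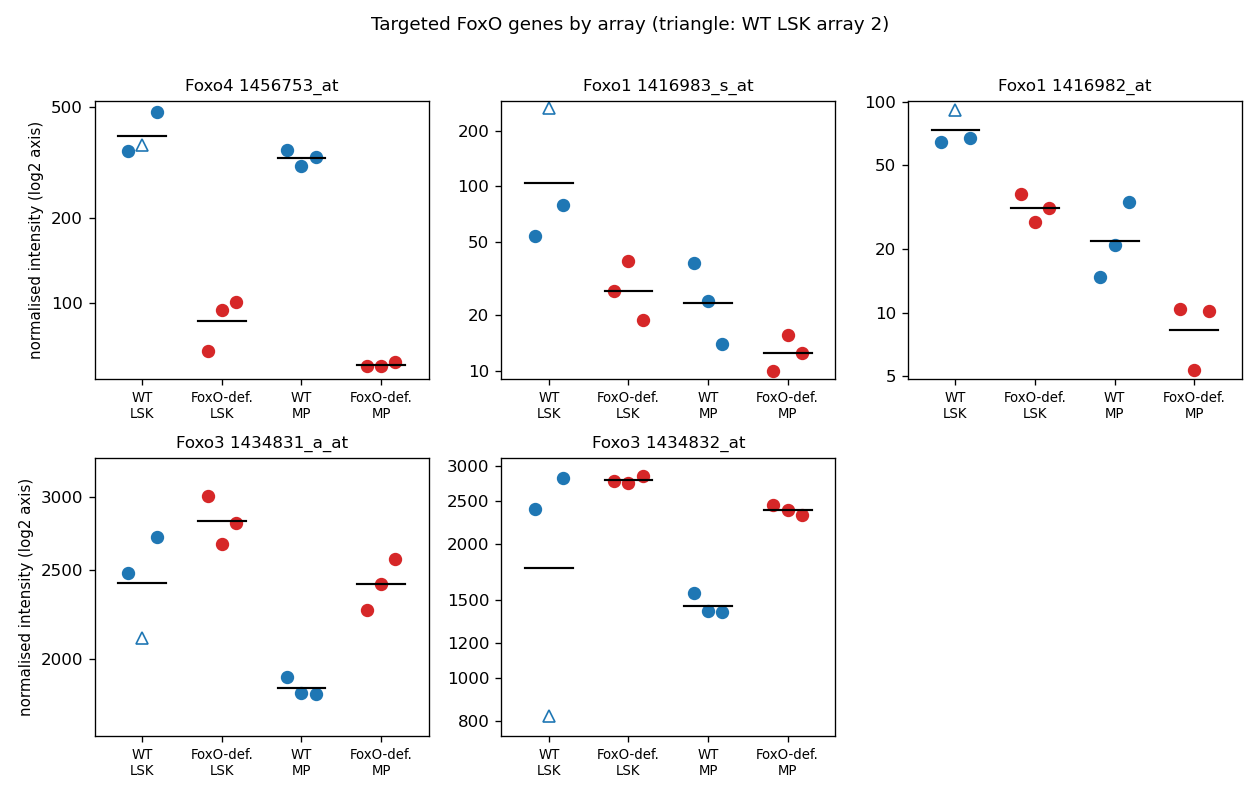
Normalised intensity (log2 axis) of the Foxo4, Foxo1 and Foxo3 probe sets on each of the 12 arrays, by group, where MP means myeloid progenitors, blue is wild type, red FoxO-deficient, the open triangle WT LSK array 2 and the bar the mean of the log2 values. The deficient Foxo4 arrays sit at 59.1 to 100.2 and the wild-type ones at 309 to 479, whereas the deficient Foxo3 arrays overlap those of WT LSK and lie above those of WT progenitors.

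Foxj3, a forkhead activator known from muscle and spermatogenesis, was the only gene outside the targeted ones that was called with all 12 arrays. Its probe set 1438220_at (gene at chr4:119539661-119629119) read 364, 306 and 394 in WT progenitors and 117, 123 and 159 in FoxO-deficient progenitors. In LSK it read 276, 317 and 251 in wild type and 176, 173.5 and 173.7 in deficient cells. In both cell types every deficient array lay below every wild-type array. The fall in progenitors was 2.68-fold, a log2 change of -1.42 ± 0.19 (SE, n = 3 against 3, limma adjusted p = 0.00588). The LSK change of -0.68 ± 0.19 was not called (limma adjusted p = 0.275), and the average of both cell types, -1.05 ± 0.13, was (limma adjusted p = 0.00677). Leaving out any 1 array kept the progenitor change between -1.56 and -1.33, with limma adjusted p from 0.00139 to 0.0317.

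The other bright Foxj3 probe set did not show this. Probe set 1435362_at read 336, 365 and 318 in WT progenitors and 314, 329 and 338 in deficient progenitors, which overlapped. Its progenitor change of -0.05 had a 95% interval of -0.56 to 0.45 (limma adjusted p = 0.978), which leaves out the size seen on 1438220_at. In LSK it read 501, 829 and 451 in wild type and 419.5, 396 and 399 in deficient cells, without overlap, at -0.50 ± 0.23 (limma adjusted p = 0.482). Without array 2 that LSK change was -0.23 (limma adjusted p = 0.432). Where the probe sets lie along the Foxj3 transcripts was not analysed here, so which part of the transcript fell is not known. The third Foxj3 probe set, 1459055_at, was above background on 0 arrays and was not tested.

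**Figure D3:**
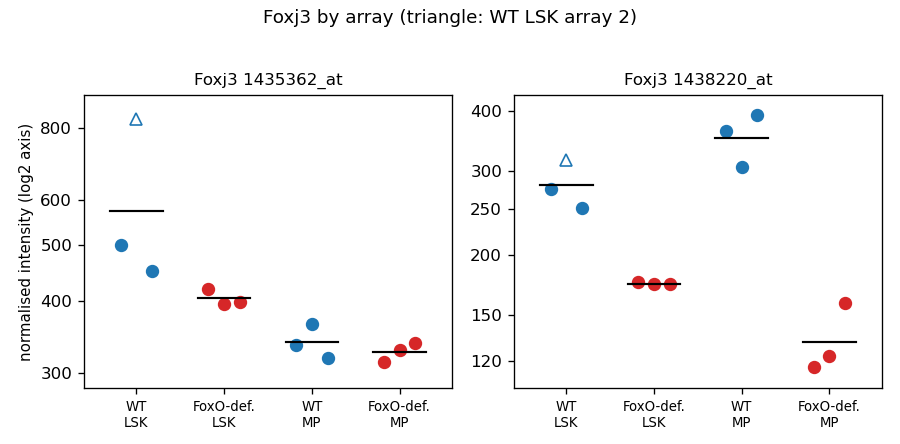
Normalised intensity (log2 axis) of both bright Foxj3 probe sets on each array, by group, with MP for myeloid progenitors, the open triangle for WT LSK array 2 and bars for the mean of the log2 values. On 1438220_at the deficient progenitors lie at 117 to 159 and the wild-type ones at 306 to 394, while on 1435362_at both lie between 314 and 365.

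The remaining forkhead genes did not pass the test for FoxO loss. Foxn2, a forkhead protein related to Foxn3, read 346, 202 and 363 in WT LSK and 463, 464 and 468 in deficient LSK on probe set 1454831_at (gene at chr17:88440704-88490533). The groups did not overlap, and the change of 0.66 ± 0.23 was not called (limma adjusted p = 0.384). Without array 2 that change was 0.39 ± 0.12, again not called (limma adjusted p = 0.224). In progenitors the same probe set read 549, 683 and 560.4 against 609, 647 and 656, with overlap and a change of 0.10 (limma adjusted p = 0.953). The other Foxn2 probe set, 1441138_at, read 10.1 to 28.1 in WT LSK and 12.5 to 22.5 in deficient LSK, and 25.0 to 39.1 and 35.9 to 47.6 in progenitors, with overlap in both cell types.

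Foxn3, a repressor linked to cell cycle checkpoints, was measured by 4 probe sets. Probe set 1438255_at (gene at chr12:99190081-99563667) read 219, 224 and 189.9 in WT progenitors and 139, 173 and 163 in deficient progenitors. In LSK it read 395, 94.3 and 332 in wild type against 234, 239.7 and 235 in deficient cells. The progenitor groups did not overlap, and array 2 was far below the other WT LSK arrays. The LSK change was 0.03 with all arrays and -0.61 without array 2 (limma adjusted p = 0.981 and 0.113). The progenitor change of -0.42 ± 0.44 was not called (limma adjusted p = 0.832), whereas without array 2 the average of both cell types was, at -0.52 ± 0.10 (limma adjusted p = 0.0242). The Foxn3 probe sets 1436925_at and 1434002_at changed by between -0.18 and 0.14 in each cell type, with limma adjusted p from 0.794 to 0.972. The last, 1453094_at, was above background on 10 of 12 arrays and changed by 0.06 in LSK and -0.56 in progenitors (limma adjusted p = 0.967 and 0.747).

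Foxp1, a repressor needed for early B cell development, was covered by 8 probe sets, of which 6 were above background throughout. On probe set 1435222_at (gene at chr6:98925342-99522746), WT LSK read 1859, 1424 and 1873 and deficient LSK 1847, 1825 and 2107. WT progenitors read 1237, 1371 and 1319.7 there and deficient progenitors 1398, 1371 and 1303. Deficient and wild-type arrays overlapped in both cell types, and the 95% intervals of the changes were -0.21 to 0.56 in LSK and -0.33 to 0.44 in progenitors. Probe set 1421140_a_at read 30.3, 42.5 and 39.7 in WT progenitors and 55.8, 55.9 and 58.7 in deficient ones, without overlap. That change of 0.61 ± 0.27 was not called (limma adjusted p = 0.396). In LSK 1421140_a_at changed by -0.37, with overlap (limma adjusted p = 0.624). Probe sets 1435221_at and 1421141_a_at changed by 0.21 and 0.36 in LSK and by 0.18 and 0.29 in progenitors, with overlap in both cell types and limma adjusted p from 0.669 to 0.953. Probe sets 1455242_at and 1421142_s_at changed by 0.13 and 0.74 in LSK and by 0.08 and 0.03 in progenitors, with overlap and limma adjusted p from 0.726 to 0.997. Without array 2 their LSK changes were -0.21 and -0.45 (limma adjusted p = 0.509 and 0.260). Probe sets 1438802_at and 1443258_at were above background on 7 and 5 of 12 arrays and were called in no comparison of FoxO loss. In LSK the groups of 1438802_at did not overlap, at 23.2 to 28.2 in deficient and 6.97 to 22.5 in wild-type cells.

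Foxk1, a repressor that acts downstream of mTOR on metabolic genes, read 1005, 244 and 843 in WT LSK and 761, 790.0 and 796 in deficient LSK on probe set 1434655_at. It read 763, 795 and 592 in WT progenitors and 747, 894 and 809.5 in deficient ones. Both pairs of groups overlapped, with limma adjusted p of 0.739 and 0.950. The Foxk1 change in LSK was 0.40 with all arrays and -0.23 without array 2. Its other probe sets, 1421759_a_at and 1451752_at, were above background on 2 and 1 of 12 arrays. Foxp4, a relative of Foxp1, read 80.7, 153 and 18.6 in WT LSK on 1431088_at, and all 9 other arrays lay between 11.7 and 32.3. Its probe set 1429719_at, above background on 11 of 12 arrays, read 186 on array 2 and 9.87 to 34.9 on the others, and 1431437_at was above background on 2 of 12. Foxm1 read 12.7 to 18.7 in WT LSK, 17.6 to 23.9 in deficient LSK, 6.96 to 29.5 in WT progenitors and 27.9 to 32.5 in deficient progenitors on 1417748_x_at, all dim and overlapping within each cell type. Its probe sets 1448834_at and 1448833_at were each above background on 9 of 12 arrays, with overlapping groups in both cell types, and 1437138_at on none.

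**Figure D4:**
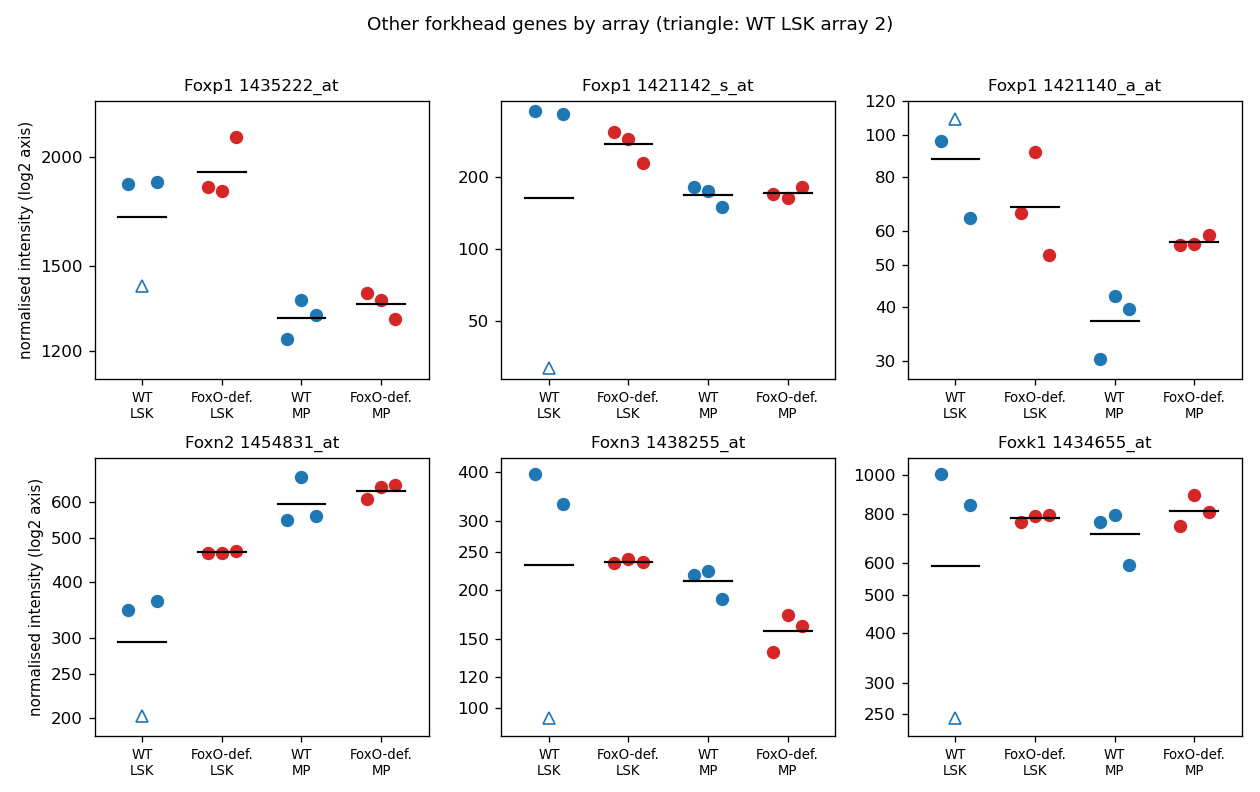
Normalised intensity (log2 axis) of 6 probe sets of Foxp1, Foxn2, Foxn3 and Foxk1 on each array, by group, with MP for myeloid progenitors, blue for wild type, red for FoxO-deficient, the open triangle for WT LSK array 2 and bars for the mean of the log2 values. Array 2 is the lowest WT LSK array in 5 of the 6 panels, for example 31.7 against 378 and 368 on Foxp1 1421142_s_at.

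Counts of groups that do not overlap, with 3 arrays a side, were read against all probe sets. In LSK 9 of 32 forkhead probe sets had no overlap between deficient and wild-type arrays, 3 above and 6 below, where 16.2% of all tested probe sets did. In progenitors it was 8 of 32, 3 above and 5 below, where 28.3% of all did.

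Whether FoxO loss acted differently on forkhead genes in LSK and in progenitors was tested directly. The difference was called for 0 of the 32 forkhead probe sets with limma, where 0.588% of all were called. An unadjusted p under 0.05 was found for 2 of 32, and over all 31779 probe sets for 3338. The 2 forkhead ones were Foxj3 1438220_at, which fell by 0.74 more in progenitors on the log2 scale (limma adjusted p = 0.345), and Foxp1 1421140_a_at, with a difference of 0.98 (limma adjusted p = 0.391). Without array 2 the count was again 0, where 2.19% of all were called. Without array 2, forkhead calls in LSK stayed at 1 of 32, where 0.512% of all were called. In progenitors they rose to 4, where 6.23% were called, and averaged over cell types to 5, where 3.99% were called. The added ones were Foxo1 and Foxo3 in progenitors, and Foxo3 and Foxn3 in the average.

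Between the wild-type cell types, a comparison that shares its arrays with those above, 4 of the 32 probe sets were called (12.5%), 1 higher and 3 lower in progenitors than in LSK, where 14.5% of all were called. Groups without overlap numbered 8 of 32, where 31.1% of all had none. Foxo1 was lower in progenitors on 2 probe sets, by -1.75 ± 0.35 on 1416982_at and -2.15 ± 0.58 on 1416983_s_at (limma adjusted p = 0.00949 and 0.0351). The second of these lost its call when array 4, 8, 9 or 12 was left out, at adjusted p between 0.0517 and 0.118. Without array 2 both were called, at -1.60 and -1.48 (limma adjusted p = 0.0170 and 0.0458).

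Foxp1 1421140_a_at was lower in WT progenitors, at 30.3 to 42.5 against 64.4 to 109 in WT LSK, a change of -1.25 ± 0.27 (limma adjusted p = 0.0134). Without array 7 its adjusted p was 0.0525. Foxn2 1454831_at was higher in WT progenitors, at 549 to 683 against 202 to 363, a change of 1.02 ± 0.23 (limma adjusted p = 0.0174). Without array 8 its adjusted p was 0.0639. Foxo4 did not differ beyond its spread between the cell types, with a change of -0.25 and a 95% interval of -0.71 to 0.20.

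The cell type comparison depended on array 2. Without it, 15 of the 32 forkhead probe sets (46.9%) were called, 2 higher and 13 lower in progenitors, where 25.1% of all were called. Both Foxn2 probe sets were then higher, by 0.74 and 1.36. The lower ones were 6 of Foxp1, 2 each of Foxo1, Foxo3 and Foxn3, and 1 of Foxj3. Foxp1 1421142_s_at read 378, 31.7 and 368 in WT LSK and 181, 175 and 149.6 in WT progenitors, and its change moved from 0.03 ± 0.77 to -1.15 ± 0.16 without array 2 (limma adjusted p = 0.985 and 0.00119). Foxp1 1455242_at read 1888, 908 and 1788 against 933, 925.5 and 853, and went from -0.69 ± 0.26 to -1.01 ± 0.12 (limma adjusted p = 0.118 and 6.6e-04). Foxo3 1434832_at went from -0.28 to -0.82 (limma adjusted p = 0.683 and 0.00138).

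**Figure D5:**
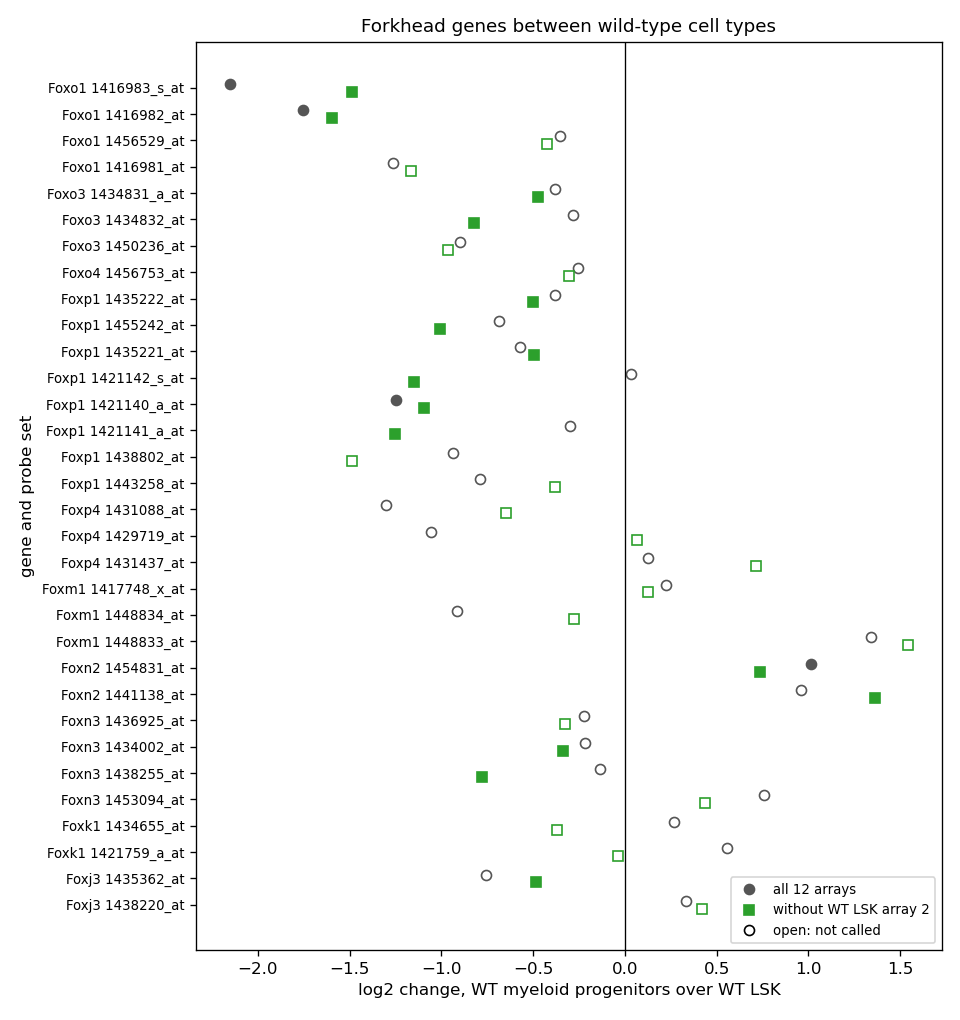
Log2 change of WT myeloid progenitors over WT LSK for the 32 tested forkhead probe sets, with grey circles for all 12 arrays and green squares without WT LSK array 2, filled where the limma adjusted p is under 0.05. The filled symbols number 4 with all arrays and 15 without array 2, and Foxp1 1421142_s_at moves from 0.03 to -1.15.

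Of 34 further forkhead genes, 27 had a probe set of their own, and only Foxd2, Foxj2 and Foxk2 were above background on all 12 arrays. Foxd3, Foxi1 and Foxs1 were above it on none, and the other 21 on some arrays. Of the 14 that were bright enough to test, 0 were called in any limma comparison of FoxO loss, with or without array 2. Over all probe sets 0.148% were called in LSK and 1.46% in progenitors. An unadjusted p under 0.05 was found for 5 of the 14 in LSK and 1 in progenitors. Over all 31779 probe sets these counts were 3321 and 3887. Foxd2 was lower in WT progenitors, with mean levels of 20.1 against 54.5 in WT LSK, a change of -1.44 ± 0.22 (limma adjusted p = 0.00215). Foxa3 had a mean of 41.5 in WT LSK and was not above background on any progenitor array, so that it was at least 4.14-fold lower (limma adjusted p = 0.00770). Here the bound takes the background limit, or the measured value if higher, as the progenitor level. With only the wild-type groups in the fit neither gene was called (limma adjusted p = 0.0584 for Foxd2 and 0.0760 for Foxa3).

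Among genes that regulate FoxO or act with it, 1 was called for its loss. Of 39 tested, which include the Akt kinases, 14-3-3 proteins and acetylases, 0 were called in LSK, where 5 had an unadjusted p under 0.05. Over all 31779 probe sets 0.148% were called in LSK and 3321 had an unadjusted p under 0.05. In progenitors 1 of 39 fell, where 1.46% of all were called. It was Sgk1, a kinase that phosphorylates FoxO, with mean levels of 739 in wild type and 363 in deficient cells, a change of -1.03 ± 0.17 (limma adjusted p = 0.0182). This call was lost when any 1 of arrays 7 to 12 was left out, at adjusted p up to 0.0798. Without array 2 the progenitor counts were 1 higher and 2 lower, where 6.23% of all were called. In the wild-type cell type comparison 4 of 39 were higher and 2 lower in progenitors, close to the 14.5% of all that were called. The lower ones were Prkaa2, a catalytic subunit of AMPK (-2.23, limma adjusted p = 0.00663), and Smad3 (-1.25, limma adjusted p = 8.9e-04).

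Of 28 tested genes of FoxM1 and mitosis, 0 were called for FoxO loss in LSK or in progenitors, with 2 at an unadjusted p under 0.05 in each. Over all 31779 probe sets 0.148% and 1.46% were called in these comparisons, and 3321 and 3887 had an unadjusted p under 0.05. Without array 2, 1 of the 28 was lower in progenitors, where 6.23% of all were called. In WT progenitors 11 of 28 were higher than in WT LSK and 0 lower, with a median change of 0.55 against 0.06 over all 31779 probe sets, of which 2208 were called higher and 14.5% called in either direction. Among them were the mitotic kinases Plk1 (1.81, limma adjusted p = 0.0252) and Aurka (1.50, limma adjusted p = 0.00246). Without array 2 the counts were 19 and 1, where 25.1% of all were called.

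Of 39 tested genes described elsewhere as FoxO targets, 0 were called in LSK, where 2 had an unadjusted p under 0.05, and 6 fell in deficient progenitors. Over all probe sets, 0.148% and 1.46% were called in these comparisons, and 3321 of 31779 had an unadjusted p under 0.05 in LSK. Their median change in progenitors was -0.21 against 0.02 over all probe sets. Klf6, a Krüppel-like factor, had a mean of 1389.5 in WT progenitors and 229.75 in deficient ones (-2.60 ± 0.24, limma adjusted p = 4.95e-04). Trib1 went from 96.9 to 3.16, with 1 of 3 deficient arrays above background (-4.94 ± 0.77, limma adjusted p = 0.0133), and Klf2 from 35.7 to 5.33, likewise with 1 (-2.74 ± 0.50, limma adjusted p = 0.0266), so the sizes of these 2 falls are uncertain. The other 3 were Ddit4, an inhibitor of mTOR signalling (-2.06, limma adjusted p = 0.0476), the cell cycle inhibitor Cdkn1a and Tob1. When each array was left out in turn the Klf6 call was kept. The Ddit4 call was lost without any 1 of arrays 4 to 12 (limma adjusted p up to 0.156) and that of Cdkn1a without any 1 of arrays 7 to 12 (up to 0.0838). The Tob1 call was lost without array 7, 8, 9, 11 or 12 (up to 0.0673), Klf2 without array 4, 7, 9 or 12 (up to 0.0989) and Trib1 without array 7, 9 or 12 (up to 0.0557). Without array 2 the progenitor counts were 10 lower and 2 higher, where 6.23% of all were called. In WT progenitors against WT LSK 13 of 39 were lower and 1 higher, where 14.5% of all were called. Among the lower ones were Cdkn1a (-2.76, limma adjusted p = 3.71e-04) and Pdk4, with a mean of 212 in WT LSK and 4.40 in WT progenitors, where 1 of 3 arrays was above background (limma adjusted p = 0.00156).

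A group of 17 immediate-early genes, which respond within minutes to handling and stimulation and include Klf2 and Klf6, moved with the progenitor groups. Its summed level was 14407 to 15243 in WT progenitors and 1064 to 1148 in deficient progenitors, against 21377 to 24507 and 25546 to 26645 in WT and deficient LSK. In the progenitor comparison 16 of the 17 were called lower, where 1.46% of all probe sets were called. In LSK 0 of the 17 were called, where 0.148% of all were. For the difference between cell types 13 were called lower, where 0.588% of all were called. The summed level of 6 erythroid marker genes also differed, at 3833 to 3966 in WT progenitors and 2789 to 2893 in deficient ones. In LSK it was 200.2 to 220.0 in wild type and 103 to 129.6 in deficient cells. Car1 made up most of the progenitor sums, with means of 3345 and 2550. Of these 6 genes, 1 was above background on all 12 arrays, 4 on some and 1 on none. Of the 4 tested, 0 were called in LSK and 0 in progenitors, with 3 and 4 at an unadjusted p under 0.05. Over all 31779 probe sets 3321 and 3887 were under it. Averaged over both cell types 2 of 4 were called lower, where 1.03% of all were called. Without array 2, 1 of 4 was called lower in each cell type, where 0.512% and 6.23% of all were called. The part of either list in the forkhead results was not tested.

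For each forkhead gene, the genes with the most similar pattern over the 12 arrays were taken by Pearson correlation of log2 values among 13731 genes, as a description only, since the arrays share groups and array 2. Foxo4 was most like B3galt6 (r = 0.918), Hbb-b2 (0.906) and Khsrp (0.904). Foxo3 was most like Man1a (0.968), Macroh2a2 (0.962) and Trim30a (0.955), and Foxp1 most like Ikzf2 (0.971), Ensa (0.969) and Oas3 (0.968). Foxn2 followed Bora (0.984), Nmnat3 (0.981) and Mrps10 (0.978). Foxn3 followed 9030607L20Rik (0.923), Rell1 (0.916) and Atp2b4 (0.907), and Foxm1 followed Arfgef3 (0.886), Lmo1 (0.883) and Shld2 (0.868).

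For the others array 2 counted more. Foxk1 was most like Golga3 (r = 0.978), Pfkfb2 (0.977) and Rpl11 (0.974), which fell to 0.791, 0.784 and 0.810 without that array. Foxo1 was most like Mxd4 (0.957), Wdfy2 (0.954) and Rpsa (0.945), and 0.915, 0.901 and 0.874 without it. Foxp4 was most like Med12 (0.944), Pgrmc1 (0.940) and Pafah2 (0.935), and 0.873, 0.874 and 0.841 without it. The Foxj3 probe set 1435362_at was most like Ttyh3 (0.985), Smpdl3a (0.976) and Phc1 (0.975), and 0.946, 0.915 and 0.913 without it.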

How the data were processed

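Per the labels' protocols, amplified cDNA carried biotin from the NuGEN Ovation kit. The authors deposited linear intensity values, 1 for each of 45101 probe sets and array, and their summarising software is not given in the sources. An offset of 0.6, the 10th percentile of all values, was added, and the deposited intensities were taken to log2 and quantile normalised. Of the rest after 64 control probe sets, the 31779 above the 40th percentile of their array on at least 3 arrays were tested with limma 3.58.1 in R 4.3.3, with 1 mean per group over 12 arrays and Benjamini-Hochberg adjustment over all probe sets. Probe set names came from the platform annotation, updated to RefSeq GRCm38.p6: 34945 had 1 symbol, 932 several and 9160 none. Precision is limited by 3 arrays a group. The fit was tested on simulated data.

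Every forkhead probe set was named, those near background by counts or changes alone; of the other lists, those called for FoxO loss, at most the 4 largest per list and comparison, and at most 2 per list between cell types, were named, along with 2 more called FoxO targets and the genes above or below background throughout among the further forkhead genes. In lists, each gene is its brightest tested probe set. The genes and lists were chosen with earlier results of these data known. Alternatives were another offset, median scaling, other filters, array weights, 1 probe set per gene, only the groups compared, and leaving out each array.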

Additional observations from a re-analysis of the deposited data

Results flagged for a closer look

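Of 39 FoxO regulator genes and 39 FoxO target genes tested, 1 and 2 had a FoxO effect that differed between the cell types. This was by limma's test of the difference itself, which called 0.588% of all probe sets. Klf6 is also on the list of 17 immediate-early genes, of which 13 were called lower for this difference. The log2 change in myeloid progenitors minus that in LSK was -1.45 for Sgk1 (limma adjusted p = 0.0310), -3.13 for Klf6 (limma adjusted p = 0.00335) and -1.37 for Tob1 (limma adjusted p = 0.0489). All 3 fell in FoxO-deficient progenitors, and their LSK changes of 0.42, 0.53 and 0.26 were not called. Without array 2 the differences were -1.29, -2.81 and -1.32, with limma adjusted p of 0.00390, 1.03e-04 and 0.0180. When each array was left out in turn, the Klf6 difference stayed called, that of Tob1 was lost without any 1 array but array 2 (limma adjusted p up to 0.138) and that of Sgk1 without any 1 of arrays 4 to 12 (limma adjusted p up to 0.102). For the 10 forkhead genes described above no such difference was called.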

How the results depend on the processing

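No paired analysis was possible because the array numbers 1 to 12 are not shared between groups. The forkhead calls in LSK numbered 1, but 2 with an offset of 32 and 0 with only the LSK arrays in the limma fit, where 5 had an unadjusted p under 0.05. Over all 31779 probe sets these settings called 47, 320 and 0. In progenitors the forkhead calls numbered 2, but 4 with array weights and 1 with 1 probe set per gene, and 2 to 4 when each array was left out. Over all probe sets these settings called 464, 1962, 253 of 13732, and 230 to 1933. With only the progenitor arrays in the limma fit, Foxo3 1434832_at was called in addition, where 689 of all 31779 probe sets were called. Averaged over cell types the forkhead calls numbered 3, but 1 with 1 probe set per gene, and 2 to 5 when each array was left out. Over all probe sets these settings called 327, 255 of 13732, and 126 to 1240. The setting with 1 probe set per gene kept the brightest, so Foxj3 1438220_at and Foxo1 1416982_at were not tested in it. Between wild-type cell types they numbered 4, but 9 with an offset of 32, 14 with array weights and 0 with only those groups in the limma fit, where 4 had an unadjusted p under 0.05, and 3 to 15 when each array was left out. Foxp1 1421142_s_at turned from 0.03 to -1.03 with array weights in that comparison, and lay between -1.15 and 0.64 when each array was left out; array 2 gave the lowest value. The difference between cell types stayed at 0 calls under each alternative run for it. The Foxo1 1416982_at call in the average was also lost with median scaling and without a filter (limma adjusted p = 0.0574 and 0.0827).

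Over all probe sets, calls ran from 0 to 320 in LSK (47 reported), 230 to 1962 in progenitors (464), 89 to 712 for the difference (187), 126 to 1240 for the average (327) and 1261 to 7778 between wild-type cell types (4619). Median scaling moved the median wild-type cell type change from 0.06 to 0.19 and the share of higher calls from 47.8% to 64.8%. Dim probe sets, and 3 arrays a group that may be technical replicates, limit all of these.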
